A study of Mus musculus with 8 samples.

Results

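The duct identity genes Krt19, Krt7, Krt8, Krt18, Sox9, Spp1, Cftr and Muc1, which mark the pancreatic duct epithelium, were followed through a single-cell RNA-seq data set of mouse islets. They were chosen by name as known markers and are 8 of the 19945 genes in the deposited count table. Each was read as the sum of its UMIs (unique molecular identifiers, 1 per captured transcript) in each of the 12 annotated cell classes, per 1000000 UMIs of that class (CPM), separately for vehicle- and FAKi-treated mice. FAKi, the FAK inhibitor PF562271, blocks the kinase activity of focal adhesion kinase. Wild-type mice, aged between 6 and 12 weeks when experiments began, received FAKi at 50 mg/kg in 2 doses per day for 3 weeks, or vehicle on the same schedule, and 10 days passed between the end of dosing and islet isolation. Islets of 5 mice were pooled per condition and handpicked away from exocrine tissue. Each pool gave 1 library, which was read on 4 sequencing lanes that make up the 8 samples of the series. With 1 library per condition no test between conditions was possible, and the intervals given are 95% intervals that cover counting error only, not the spread between mice.

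Ducts carry the enzymes of acinar cells to the gut and add a bicarbonate-rich fluid on the way. Keratins are the intermediate filament proteins of epithelia and assemble as pairs of a type I chain (Krt18, Krt19) with a type II chain (Krt7, Krt8). Krt8 and Krt18 are the pair of simple epithelia in general, and Krt19 is widely used as a marker of pancreatic ducts. Sox9 is the transcription factor that maintains duct identity. Spp1 encodes osteopontin, a secreted phosphoprotein, Cftr the chloride and bicarbonate channel of the duct cell's apical membrane, and Muc1 a mucin of that membrane. Acinar cells under injury or oncogenic signalling can take on duct genes, which is called acinar-to-ductal metaplasia, and the duct genes were therefore also read in the acinar and endocrine classes.

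The vehicle library held 3776 cells and 59514118 UMIs and the FAKi library 3183 cells and 57836783 UMIs. The class annotated as ductal held 498 vehicle cells, with a median of 9546 UMIs per cell, and 156 FAKi cells, with a median of 9661.5 UMIs. Handpicking precedes these cell numbers, and 4 cell barcodes occurred in both libraries. Each of the 8 duct genes had its highest level among the 12 classes in the ductal class of both libraries, with an interval apart from the next class. Of 32 other duct genes, 26 in vehicle and 27 in FAKi cells were also highest there, so the label held against its markers. Because annotation draws on such markers, the height of the duct genes in this class is a description and not a finding.

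The genes lie on 5 chromosomes (GRCm38 with GENCODE vM21). Of the keratins, 3 share chromosome 15: Krt7 at chr15:101411043-101430313 on the plus strand, Krt8 at chr15:101996698-102004482 on the minus strand and Krt18 at chr15:102028180-102032027 on the plus strand. Krt8 and Krt18 face away from each other with 23698 bp between them. Krt19 lies at chr11:100140810-100148665 on the minus strand and Sox9 at chr11:112782224-112787760 on the plus strand. Spp1 (chr5:104435118-104441050), Cftr (chr6:18170687-18322768) and Muc1 (chr3:89229057-89233381) are each on the plus strand. RefSeq promoter entries (GRCm38.p6) were matched for 6 of the 8 genes, and Krt19 and Sox9 are named only. The 100 bases before the transcript start of the 3 keratins of chromosome 15, and of Cftr, the gene with the largest ratio between conditions in ductal cells, are shown 5′ to 3′ on the strand of the gene, with each match to the GC box GGGCGG, a common promoter motif, on either strand in capitals. The RefSeq starts of the 3 keratins lie inside their GENCODE spans.
Krt7 (chr15:101412303-101412402): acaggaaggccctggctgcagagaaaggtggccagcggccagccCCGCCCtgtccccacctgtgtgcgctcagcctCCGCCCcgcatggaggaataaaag
Krt8 (chr15:102004343-102004442): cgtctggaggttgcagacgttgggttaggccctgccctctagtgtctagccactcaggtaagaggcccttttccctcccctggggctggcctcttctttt
Krt18 (chr15:102028116-102028215): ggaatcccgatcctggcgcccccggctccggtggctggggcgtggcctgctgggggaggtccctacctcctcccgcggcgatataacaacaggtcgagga
Cftr (chr6:18170587-18170686): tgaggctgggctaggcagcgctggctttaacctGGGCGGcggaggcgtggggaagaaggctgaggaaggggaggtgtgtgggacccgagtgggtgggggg
Both strands were searched for this GC box and, separately, for the TATA box TATAAA, and no match to the one overlapped a match to the other. The GC box occurred at 2 places before Krt7 and 1 before Cftr, and not in these windows of Krt8 and Krt18. Of 32851 promoter windows of the same length, 24.7% held it. The TATA box, held by 5.56% of those windows, was in none of the 4.

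In ductal cells of both libraries Spp1 led, Krt8 and Krt18 followed at near-equal levels that changed places between the libraries, and then came Krt19, Sox9, Krt7, Muc1 and Cftr in this order. Levels of different genes are 3′ UMI counts, which are taken once per transcript and do not scale with transcript length. Spp1 stood at 10644 CPM in vehicle and 11802 CPM in FAKi cells, and Cftr at 21.4 and 46.0 CPM, so the least and the most abundant of the 8 differed by more than 2 orders of magnitude in both libraries. Nearly every ductal cell carried Krt8, Krt18 and Spp1, and most cells carried 7 of the 8 genes, namely 53.4% of vehicle and 57.1% of FAKi cells. All 8 were found in 12.7% and 16.0% of cells. Within single cells thinned to 1000 UMIs the duct genes hardly varied together. The highest rank correlation across cells was 0.31, between Krt19 and Krt8 in 155 FAKi cells, and the Krt8 and Krt18 pair gave 0.19 in 495 vehicle and 0.17 in FAKi cells. These are sparse counts and the values are given as a description.

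**Figure D1:**
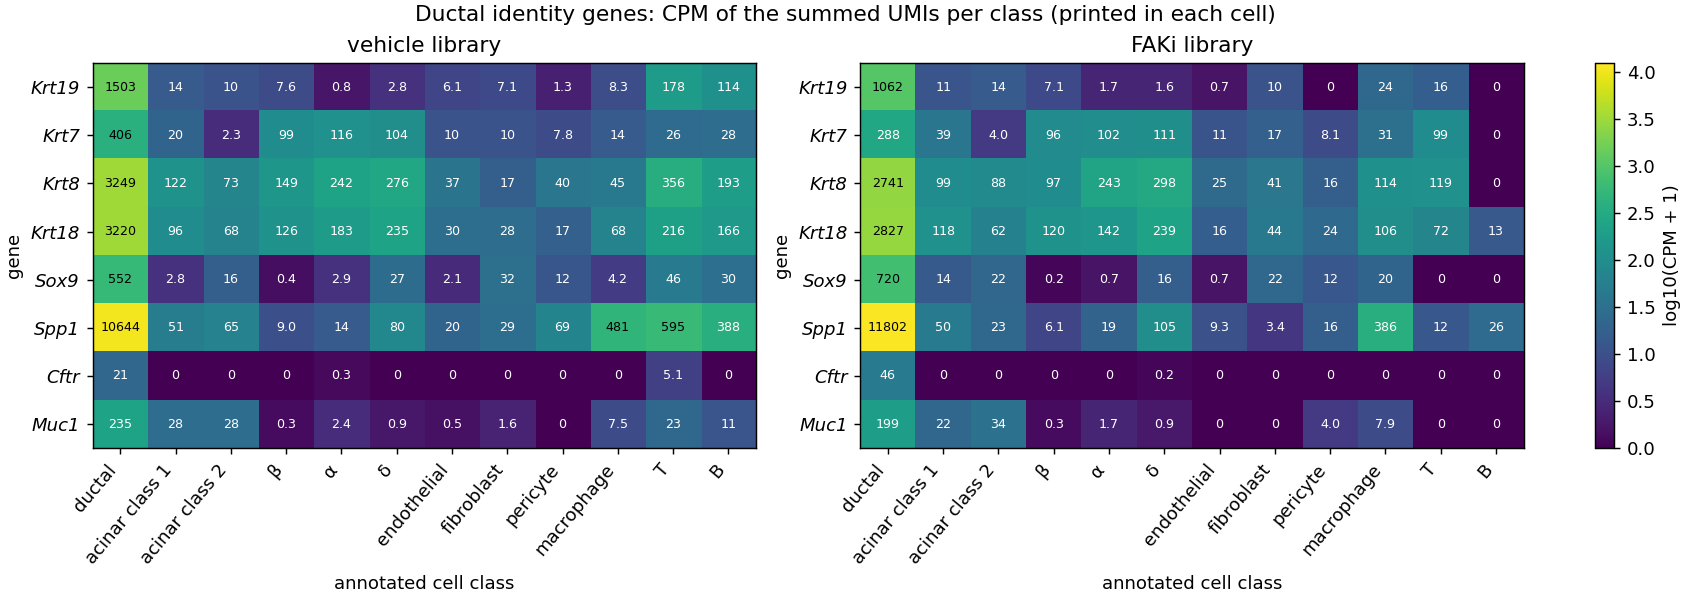
Map of the level of each of the 8 duct genes (rows) in the 12 annotated classes (columns), 1 panel per library, coloured by log10 of CPM + 1 with the CPM printed in each square. The ductal class is highest for every gene, and the endocrine classes carry Krt7, Krt8 and Krt18 at about 100 to 300 CPM.

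The first comparison asked whether duct cells of FAKi-treated mice held the duct genes at another level. The 4 keratins and Muc1 were lower in FAKi than in vehicle cells, and Spp1, Sox9 and Cftr were higher. A gene was compared when it had at least 20 UMIs in both groups together, and called when it also had a ratio of at least 2 in either direction with an interval that left out 1. By that rule 1 of 8 genes, Cftr, was called higher and 0 of 8 lower, beside 1.96% of 12058 genes called higher and 2.36% called lower. The median log2 ratio of the 8 genes was −0.21, beside 0.01 for all genes.

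Among the keratins, Krt19 stood at 1503 CPM in vehicle and 1062 CPM in FAKi ductal cells, a ratio of 0.707 (0.675 to 0.740). Krt7 stood at 406 and 288 CPM, a ratio of 0.710 (0.649 to 0.775). Krt8 and Krt18 differed less, with Krt8 at 3249 and 2741 CPM (ratio 0.844, 0.819 to 0.868) and Krt18 at 3220 and 2827 CPM (ratio 0.878, 0.853 to 0.903). With cells thinned to 1000 UMIs the log2 ratio of Krt18 turned to 0.04, while those of the other keratins stayed below 0. Krt7 was the keratin least restricted to the ductal class in both libraries. In vehicle it was 3.50-fold above the next class, where Krt8 was 9.13-fold and Krt18 13.7-fold above. The share of cells with a UMI was close between the libraries for all 4 keratins, at 97.0% and 96.8% of cells for Krt19, 87.1% and 87.2% for Krt7, and 99.4% and 98.7% for Krt8. In endothelial cells, which ought to lack these genes, the shares were 1.84% and 0.372% for Krt19 and 6.63% and 5.20% for Krt8, at median depths of 5752 and 4836 UMIs. The median level of single ductal cells, in contrast to the share, was 1206 and 896 CPM for Krt19 and 323 and 208 CPM for Krt7.

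Sox9, the duct transcription factor, stood at 552 CPM in vehicle and 720 CPM in FAKi ductal cells, a ratio of 1.31 (1.23 to 1.39). The median cell held 439 and 644 CPM, so the higher level was not held by a few cells. Spp1 stood at 10644 and 11802 CPM, a ratio of 1.11 (1.09 to 1.12), with a median cell at 8456 and 10285 CPM. Its UMIs were spread unevenly, since 82 of the 498 vehicle cells and 29 of the 156 FAKi cells held 50% of them. Muc1 stood at 235 and 199 CPM, a ratio of 0.845 (0.758 to 0.942), in 73.9% and 75.0% of cells, beside 0.368% of vehicle and 0 of 269 FAKi endothelial cells, with an interval up to 1.36%.

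Cftr, the apical anion channel, stood at 21.4 CPM in vehicle and 46.0 CPM in FAKi ductal cells, from 134 and 100 UMIs, a ratio of 2.15 (1.64 to 2.80). At least 1 Cftr UMI was found in 80 of 498 vehicle cells (16.1%, 12.9 to 19.6%) and in 41 of 156 FAKi cells (26.3%, 19.6 to 33.9%). After thinning to 1000 UMIs the shares were 1.82% and 5.16%. As a class that ought to lack the channel, β-cells gave the background, and no β-cell of either library held a Cftr UMI, at median depths of 30792.5 and 30427.5 UMIs. T cells held 5 Cftr UMIs in vehicle (5.07 CPM) and 0 in FAKi. Of the Cftr UMIs, 50% lay in 18 vehicle and 11 FAKi cells, and the top cell of each library held 8.

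**Figure D2:**
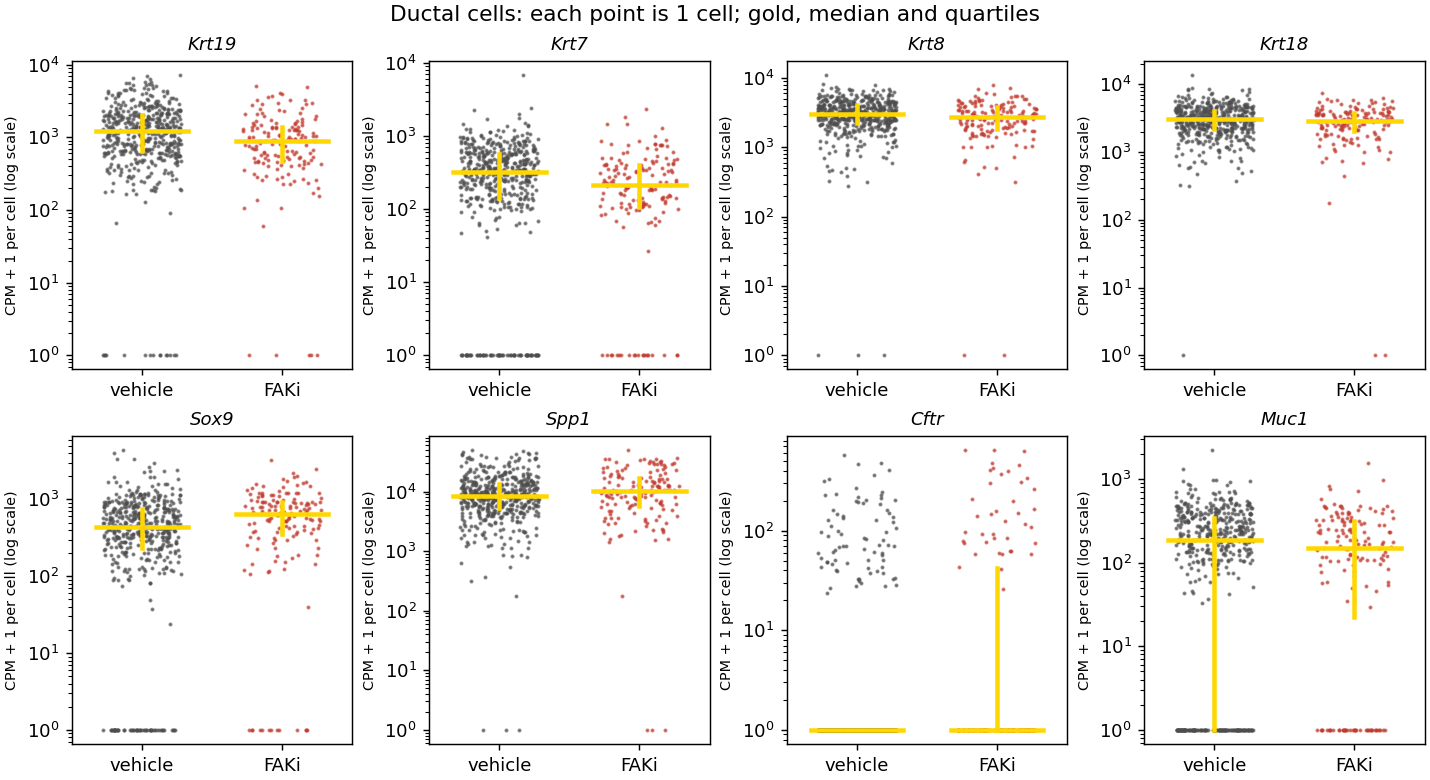
Level of each duct gene in single ductal cells (CPM per cell, on a log axis with 1 CPM added), with 498 vehicle and 156 FAKi cells as points and gold bars at the median and from the lower to the upper quartile. The medians of Krt19 and Krt7 are lower and those of Sox9 and Spp1 higher in FAKi cells, the points of both libraries overlap for every gene, and most cells hold no Cftr UMI.

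Marker transcripts of other cell types in the same class also differed between the libraries. The summed level of 5 β-cell markers (Ins1, Ins2, Iapp, G6pc2, Mafa) in ductal cells was 24087 CPM in vehicle and 53725 CPM in FAKi, and that of 5 acinar markers 2608 and 5246 CPM. The 5 mesothelial markers summed to 213 and 135 CPM, with 4 of the 5 highest in the ductal class. Other islet markers were lower in FAKi, the 2 PP-cell markers at 2412 and 783 CPM, the 3 δ-cell markers at 1905 and 1087 CPM and the 5 α-cell markers at 4815 and 3677 CPM. Mesothelium, the lining of the organ, also expresses keratins. The 5 endothelial markers summed to 29.1 and 2.30 CPM, with Cdh5 and Kdr at 0 in FAKi, and the 5 T-cell markers to 3.04 and 0.460 CPM. What part these transcripts had in the ratios of the duct genes was not tested.

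The wider duct programme in the same cells had a median ratio near that of all genes. All 32 other duct genes were compared, 2 were called higher and 2 lower, beside the 1.96% and 2.36% of all genes, and their median log2 ratio was −0.05. Pigr, which carries immunoglobulin across epithelia, stood at 47.9 and 114 CPM (ratio 2.38), in 12.2% and 32.1% of cells. Cldn4, a tight junction claudin, stood at 916 and 326 CPM (ratio 0.356, 0.329 to 0.385), in 84.1% and 68.6% of cells. Mmp7, a matrix protease, stood at 33.6 and 5.06 CPM (ratio 0.151), and Muc6, a gel-forming mucin, was called higher on 164 UMIs that all lay in 1 FAKi cell. Elf3, an epithelial transcription factor, had a ratio of 0.616, and Tff2, a trefoil peptide, stood at 78.3 and 141 CPM (ratio 1.81). Tff2 was highest in acinar class 2, at 4666 and 4774 CPM, and the acinar marker sum in ductal cells was 2608 and 5246 CPM. What part acinar transcripts had in the Tff2 ratio was not tested.

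Of 26 genes known to rise in acinar-to-ductal metaplasia, 23 were in the table. In ductal cells 2 were called higher and 4 lower, beside the same 1.96% and 2.36% of all genes, with a median log2 ratio of −0.20. Both genes called higher, Muc6 and Agr2, a disulfide isomerase of mucous cells, had all their FAKi UMIs in the same single cell, 329 in the case of Agr2. Without that cell, an alternative chosen after seeing the data, 0 of the 23 were called higher and 5 lower, and of the other duct genes 1 was called higher and 3 lower. The added lower call among the metaplasia genes was Agr2 itself, left with no FAKi UMI beside 230 vehicle UMIs, of which 67.8% lay in 1 vehicle cell that was kept. That among the other duct genes was the water channel gene Aqp1. S100a6, a calcium-binding protein, stood at 986 and 334 CPM (ratio 0.339, 0.314 to 0.366), in 89.2% and 57.7% of cells. Myc, a growth transcription factor, had a ratio of 0.406, Dclk1, a kinase also known from tuft cells, 0.427, and Mmp7 counts here too.

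**Figure D3:**
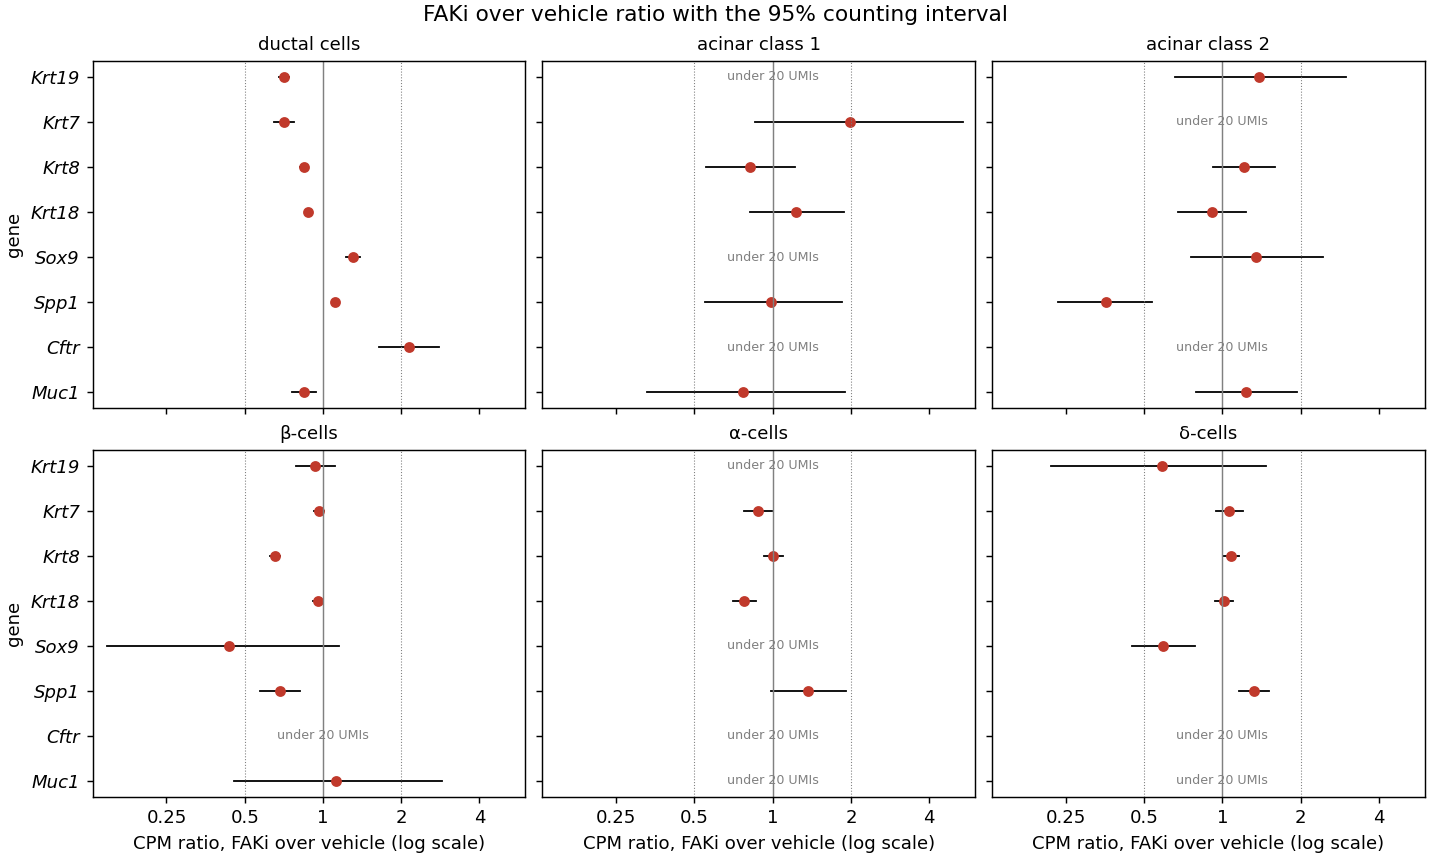
Ratio of the FAKi to the vehicle level (log axis) of each duct gene in ductal cells, both acinar classes, β-, α- and δ-cells, with 95% intervals for counting error, with a solid line at a ratio of 1 and dotted lines at a 2-fold difference. Cftr in ductal cells and Spp1 in acinar class 2 pass that difference with an interval that leaves out 1, and genes with fewer than 20 UMIs are marked as such without a point.

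Acinar cells were annotated as 2 classes of unlike depth. Acinar class 1 held 161 vehicle and 297 FAKi cells with medians of 1480 and 1140 UMIs, and acinar class 2 held 86 and 114 cells with medians of 7931 and 7280.5 UMIs. The 5 acinar markers summed to 225614 and 191117 CPM in class 1 and to 340329 and 346004 CPM in class 2. The 5 β-cell markers summed to 157541 and 252118 CPM in class 1 and to 6989 and 9550 CPM in class 2, so that class 1 carried β-cell transcripts at a level that differed between the libraries. The second question was whether either class held ductal or metaplastic transcripts, and whether these differed between the libraries.

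In acinar class 1, 5 of the 8 genes reached 20 UMIs and none was called, beside 3.38% of 2039 genes called higher and 2.11% called lower. The median log2 ratio of the 8 was −0.01, beside 0.09 for all genes. Krt8 stood at 122 and 99.3 CPM (ratio 0.815) and Krt18 at 96.3 and 118 CPM (ratio 1.23). Krt7 rested on 7 vehicle and 29 FAKi UMIs, a ratio of 1.99 with an interval of 0.853 to 5.38. Sox9 was 1 UMI in vehicle and 10 in FAKi cells, with an interval of the ratio from 0.683 to 208, too few to place. Krt19 was 5 and 8 UMIs, Spp1 stood at 51.0 and 50.4 CPM, and Muc1 at 28.3 and 21.8 CPM. Cftr was not found, which allows up to 8.50 CPM in vehicle and 4.08 CPM in FAKi cells.

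In acinar class 2, 6 of the 8 genes were compared, with 0 called higher and 1 lower, beside 3.17% of 2648 genes called higher and 1.51% called lower. The gene called lower was Spp1, at 65.2 and 23.2 CPM (ratio 0.356, 0.233 to 0.534). A single vehicle cell held 34 of its 84 UMIs, and without the top cell of each library Spp1 stood at 39.0 and 16.0 CPM. Muc1 stood at 27.9 and 34.5 CPM (ratio 1.23) in 25.6% and 32.5% of cells. Sox9 stood at 16.3 and 21.9 CPM (ratio 1.34) in 18.6% and 14.9% of cells, beside 0.552% and 0.372% of endothelial cells. Krt8 was at 73.0 and 88.2 CPM, Krt18 at 67.5 and 61.7 CPM and Krt19 at 10.1 and 13.9 CPM, each with an interval of the ratio that held 1. Krt7 was 3 and 6 UMIs, and Cftr was 0, with limits of 2.33 and 1.99 CPM.

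The lists of related genes were short in acinar cells, so that at the shares of all genes called, 3.38% and 2.11% in class 1 and 3.17% and 1.51% in class 2, counts near 0 carry little. In class 1, 0 of the 7 other duct genes compared and 0 of the 6 metaplasia genes compared were called, with ratios from 0.655 for the claudin Cldn7 to 1.65 for the adhesion protein Cdh1 and from 0.437 for the transcription factor Klf4 to 1.62 for S100a11. The metaplasia genes Agr2 and S100a6 fell under the UMI minimum in class 1 and were not compared, so they stand outside these counts. Agr2 stood at 0 CPM in vehicle and 25.9 CPM in FAKi cells of class 1. S100a6 went the other way, at 36.8 and 8.17 CPM. How these UMIs were spread over cells was not tested. In class 2, 0 of 10 other duct genes were called, with ratios from 0.794 for the cotransporter Slc12a2 to 1.71 for Elf3. Of 6 metaplasia genes there, Hes1, a Notch target, was called lower at a ratio of 0.383, and Myc had a ratio of 1.59.

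Class 1 was also set against class 2 within each library. In vehicle cells 0 of the 5 duct genes compared were called, beside 29.0% of 1819 genes called higher in class 1 and 1.92% called lower. In FAKi cells 2 of 7 were called higher in class 1, beside 35.2% of 2890 genes called higher and 2.46% called lower. These were Krt7, with a ratio of 9.92 (4.05 to 29.2), and Spp1, with a ratio of 2.17 (1.33 to 3.55). In vehicle cells Krt7 had a ratio of 8.52 (1.95 to 51.1) on 7 and 3 UMIs, under the minimum of 20, and Spp1 a ratio of 0.782 (0.442 to 1.31). The FAKi Spp1 direction turned when only cells with at least 1000 genes were kept, to a log2 ratio of −1.58, with 13 class 1 cells left. The median log2 ratio of the 8 genes was 0.24 in vehicle and 0.08 in FAKi cells, beside 0.64 and 0.73 for all genes. Beside the same shares of all genes, 3 of 6 metaplasia genes were called higher in class 1 and 0 lower in vehicle cells. In FAKi cells 3 of 8 were called higher and 1 lower. Of the other duct genes, 3 of 10 were called higher and 0 lower in vehicle cells, and 3 of 9 higher and 2 lower in FAKi cells. Class 1 is the shallower class and the median gene stood higher in it. Krt7 is also a gene of the endocrine classes in these data, and class 1 is the class with the β-cell markers. The part of those transcripts in the Krt7 ratio was not tested.

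Whether duct transcripts lay together in single cells was read from the 6 genes other than Krt8 and Krt18. A UMI of at least 2 of these 6 was found in 99.2% of vehicle and 99.4% of FAKi ductal cells. In acinar class 1 the shares were 1.86% and 3.37%, and in acinar class 2 they were 20.9% and 22.8%. Endothelial and immune cells together, read as the background, gave 1.99% and 2.77% at median depths of 5186 and 4883 UMIs. That pool holds macrophages, which express Spp1, and a few duct-rich immune cells, and endothelial cells alone gave 1.11% (0.407 to 2.39%) and 0.743% (0.0902 to 2.66%). The intervals of acinar class 1, 0.386 to 5.35% and 1.63 to 6.10%, overlapped both. Class 1 is the shallower class, though, and equal raw shares are not equal backgrounds. Those of acinar class 2, 12.9 to 31.0% and 15.5 to 31.6%, lay above the shares of both, at greater median depths of 7931 and 7280.5 UMIs. With every cell thinned to 1000 UMIs, ductal cells gave 86.1% and 88.4%. Thinned acinar class 1 gave 0 of 135 vehicle cells and 2 of 208 FAKi cells (0.962%), and thinned acinar class 2 gave 0 of 86 and 0 of 114, with intervals up to 4.20% and 3.18%. The thinned background was 0.649% and 0.597%, and 0 of 530 and 0 of 253 endothelial cells. Acinar class 1 in FAKi, at an interval of 0.117 to 3.43%, could not be told from it at this depth. Nor could acinar class 2, whose limits of 4.20% and 3.18% lie above it. With all UMIs no acinar cell held 5 or more of the 6 genes, against 66.1% and 73.1% of ductal cells. After thinning only 1.21% and 1.94% of ductal cells did, so at the depth of acinar class 1 that count says little.

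**Figure D4:**
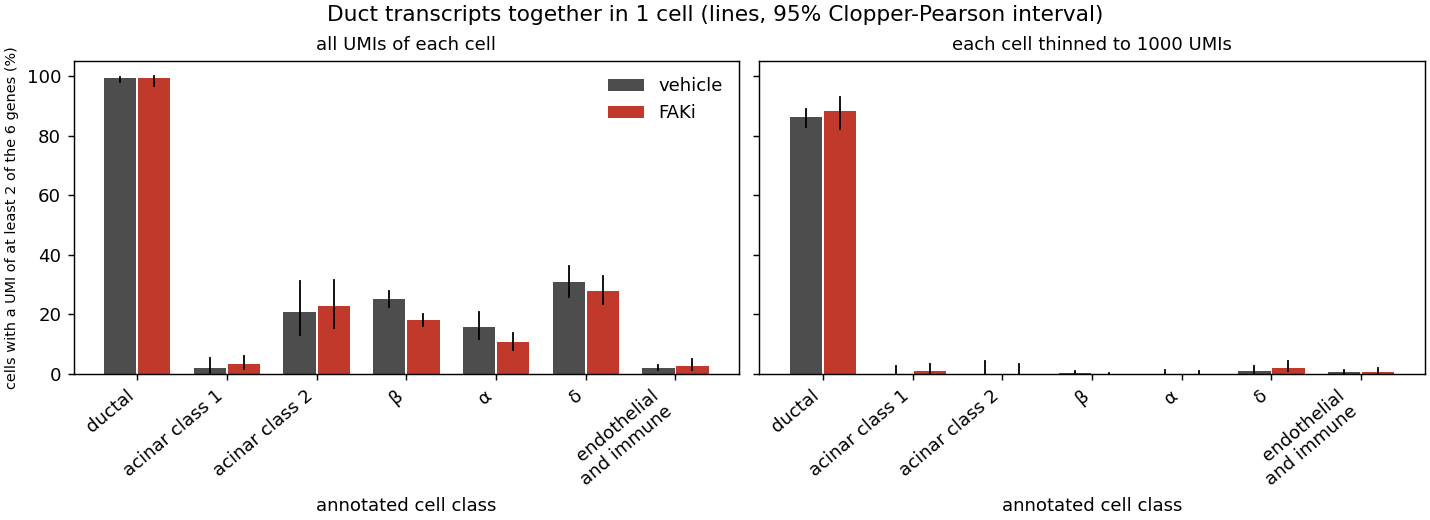
Share of cells (%) with a UMI of at least 2 of the 6 genes Krt19, Krt7, Sox9, Spp1, Cftr and Muc1, by class and library, with all UMIs and after thinning each cell to 1000 UMIs, and with 95% Clopper-Pearson bars. Ductal cells lie above 86% in every case, and after thinning the acinar and β-cell classes lie below 1%.

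Endocrine cells held Krt7, Krt8 and Krt18, and the class annotated as δ-cells also Spp1 and Sox9. That class carried the PP-cell hormone gene Ppy at 144939 and 141153 CPM, above Sst, the δ-cell hormone gene, at 108920 and 107072 CPM. Its 2 PP-cell markers summed to 216541 and 227612 CPM and its 3 δ-cell markers to 112504 and 110964 CPM, so its values cannot be assigned to δ-cells alone, and δ-cells here means the annotated class. In β-cells, 1076 in vehicle and 1336 in FAKi, 0 of the 7 genes compared passed a ratio of 2 in either direction with an interval that left out 1, beside 0.956% of 13388 genes called higher and 2.01% called lower. The median log2 ratio of the 8 was −0.08, beside −0.04 for all genes. Krt8 was the keratin that differed most, at 149 CPM in vehicle and 97.2 CPM in FAKi β-cells (ratio 0.652, 0.625 to 0.681). The share of β-cells with a Krt8 UMI was 85.3% and 74.6%, and after thinning to 1000 UMIs 13.5% and 8.94%, beside thinned shares of 1.13% and 1.58% in endothelial cells. At a lower bar of 1.5-fold Krt8 was past the call, beside 4.59% of all genes called lower by at least 1.5-fold. Over the alternatives its log2 ratio ran from −0.70 to −0.57, and the latter is under that bar. Its partner Krt18 stood at 126 and 120 CPM (ratio 0.954, 0.915 to 0.995), and Krt7 at 99.1 and 95.7 CPM (ratio 0.966, 0.921 to 1.01).

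The lower Krt8 level was present in both large β-cell clusters of the deposited clustering. In cluster 0 (650 and 675 cells) Krt8 stood at 146 and 92.8 CPM, a ratio of 0.634, and in cluster 1 (305 and 546 cells) at 130 and 82.5 CPM, a ratio of 0.633. Cluster 10 (121 and 115 cells) stood apart at 205 and 182 CPM, a ratio of 0.885. Set against cluster 0 within each library, cluster 1 had 0 duct genes called in either library, beside 1.25% of 12063 genes called higher and 0.937% called lower in vehicle, and 0.609% and 0.946% of 12156 genes in FAKi. Krt8 in cluster 1 was at 0.891 and 0.889 of its level in cluster 0. After thinning, the log2 ratio of FAKi over vehicle was −0.75 in cluster 0, −0.28 in cluster 1 and −0.97 in cluster 10, so Krt8 stayed lower in each but the order of the clusters did not hold.

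The other duct genes were at under 10 CPM in β-cells. Krt19 stood at 7.57 and 7.09 CPM, beside 6.08 and 0.665 CPM in endothelial cells, and Spp1 at 8.98 and 6.15 CPM, beside 19.8 and 9.32 CPM there. Sox9 was 14 and 7 UMIs and Muc1 10 and 13 UMIs over all β-cells, and Cftr was 0, which allows up to 0.0901 and 0.0782 CPM. At least 2 of the 6 genes were found in 270 of 1076 and 240 of 1336 β-cells with all UMIs, above the 1.99% and 2.77% of the endothelial and immune pool, at a greater depth. After thinning the shares were 0.282% and 0.0758%, beside 0.649% and 0.597% in that pool and 0 in endothelial cells alone. Of the other duct genes in β-cells, 1 of 22 was called higher (Pigr, ratio 5.02, with 43 of its 110 FAKi UMIs in 1 cell) and 1 lower, beside 0.956% and 2.01% of all genes, and of the metaplasia genes 0 of 18 were called higher and 2 lower, among them the intermediate filament gene Vim at a ratio of 0.384.

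**Figure D5:**
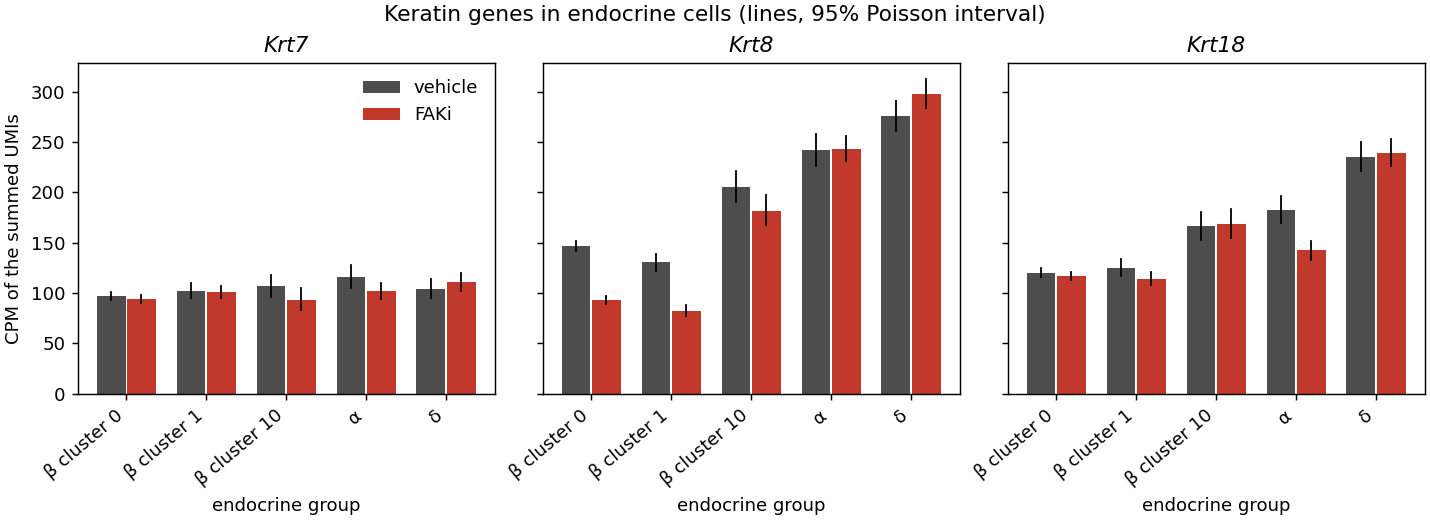
Level (CPM of summed UMIs) of Krt7, Krt8 and Krt18 in α- and δ-cells and in the 3 β-cell clusters, vehicle beside FAKi, with 95% Poisson bars. Krt8 is lower in FAKi cells of β-cell clusters 0 and 1 at ratios of 0.634 and 0.633 and is nearly level in α-cells, at 242 and 243 CPM.

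The α- and δ-cells carried more Krt8 and Krt18 than β-cells did. In α-cells, 273 in vehicle and 434 in FAKi, Krt8 stood at 242 and 243 CPM (ratio 1.01), Krt18 at 183 and 142 CPM (ratio 0.779, 0.704 to 0.863) and Krt7 at 116 and 102 CPM (ratio 0.877). The PP-cell marker sum in α-cells was 85522 CPM in vehicle and 34319 CPM in FAKi, and its part in these ratios was not tested. In δ-cells, 328 and 358, Krt8 stood at 276 and 298 CPM (ratio 1.08), Krt18 at 235 and 239 CPM and Krt7 at 104 and 111 CPM. With all UMIs Krt8 was thus lower in FAKi than in vehicle cells in β-cells, and not in α- or δ-cells. After thinning, its log2 ratio was −0.66 in β-cells, −0.23 in α-cells and −0.07 in δ-cells, below 0 in each. The difference between classes was not tested. Of the endocrine classes, the one annotated as δ-cells, with its PP-cell transcripts, had the most Sox9, at 27.4 CPM in vehicle and 16.2 CPM in FAKi cells (ratio 0.592, 0.447 to 0.782), in 21.0% and 15.4% of cells, while α-cells held 11 and 4 Sox9 UMIs in all. Spp1 in δ-cells, at 79.9 and 105 CPM, had 50% of its UMIs in 5 cells of each library. At least 2 of the 6 genes were found in 15.8% and 10.6% of α-cells and in 30.8% and 27.9% of δ-cells, and after thinning in 0 α-cells and in 0.952% and 2.04% of δ-cells. No α-, β- or δ-cell held 5 or more of the 6 genes.

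Outside epithelia and islets, a few cells held a large share of the duct transcripts of immune classes. T cells of the vehicle library stood at 178 CPM of Krt19 and 595 CPM of Spp1, the second highest class for both genes. Among these 168 cells, 2 held 5 or more of the 6 genes and 52.7% of the UMIs of the 6, and without them Krt19 stood at 112 CPM and Spp1 at 273 CPM. In the B cells of the vehicle library 1 cell of this kind, which a doublet caller marked, held 29.0% of them. Spp1 in macrophages, a known site of osteopontin, stood at 481 and 386 CPM, 50% of it in 3 and 2 cells. Sox9 in fibroblasts stood at 32.2 and 22.2 CPM, in 16.3% and 14.3% of cells. Ductal Krt19 was 8.42-fold above the next class in vehicle, where that class was T cells, and 45.0-fold in FAKi, where it was macrophages. In macrophages 1 cell of each library held 5 or more of the 6 genes, with 25.1% and 26.9% of the UMIs of the 6. Without that cell Krt19 in FAKi macrophages stood at 6.03 CPM instead of 23.6 CPM, under FAKi T cells at 15.7 CPM.

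Genes outside the 8 with the most similar profile over the 24 class and library values were found by Pearson's r of log2 levels with the mean of the 8 genes, among 8601 genes with at least 100 UMIs in ductal cells. These were Cldn3 (r = 0.963), Bicdl2 (0.953), Wfdc2 (0.951), Tstd1 (0.940) and Fxyd3 (0.936). Taken alone, Krt7 was closest to Tm4sf4 (0.981), Krt8 to Cldn3 (0.952), Krt18 to Dsg2 (0.951) and Cftr to Adamts16 (0.981). Krt19 was closest to Scx (0.926), Sox9 to Osgin1 (0.888) and Spp1 to Wfdc2 (0.915). The 24 values come from 2 libraries and the ductal values weigh heavily in each r, which is given as a description.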

How the data were processed

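Islet cells of vehicle- and FAKi-treated mice were profiled with the 10x Genomics 3′ kit (v3.1). Per the labels, the authors counted reads with Cell Ranger on mm10 and used Seurat 3.1. The deposited table holds raw UMI counts per gene and cell with 4 lanes of each library merged, and the authors deposited the percent of mitochondrial UMIs per cell, at most 8.00% in the kept cells. Cell classes and clusters are the authors' annotation. The cells labelled Control were read as vehicle.

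UMIs were summed per class and library and scaled to CPM. Levels carry exact Poisson, shares Clopper-Pearson, and ratios exact conditional binomial 95% intervals. Log2 ratios used a pseudocount of 1 CPM. A level of 0 was given a limit of 3 UMIs, and a share of 0 the upper bound of its interval. These limits and all intervals cover counting error only. Thinning left out cells under 1000 UMIs, 26 and 89 in acinar class 1. No doublets were removed from the values reported, and Scrublet marked 68 vehicle and 57 FAKi cells. Ratio intervals and calls were checked on simulated summed counts of a Poisson model, the one they assume. Thinning, shares and uneven counts between cells were not simulated. Doublets were called within scanpy 1.11.5, intervals came from scipy 1.17.1 and tables from pandas 2.3.3 (Python 3.11.15, numpy 2.4.6), and figures were drawn in matplotlib 3.10.9.

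The 8 genes, the lists and the rules were chosen with earlier results of these data known. Named were all 8 genes in each comparison, the 3 highest and 3 lowest ratios of each list in ductal cells, the 2 highest and 2 lowest elsewhere, of which examples are printed, and the genes with the closest profiles, of which that of Muc1 is not reported here. Alternatives were other pseudocounts, UMI minima, folds, cell filters, doublet removal, thinning, scaling without the 20 most abundant genes and, added after seeing the data, leaving out single cells, cells with 5 of the 6 genes, and another background.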

Additional observations from a re-analysis of the deposited data

Results flagged for a closer look

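Among the ductal, acinar and endocrine classes, Krt8, Sox9 and Spp1 had ratios of FAKi over vehicle that pointed in opposite directions, each with an interval that left out 1. The differences between classes were not tested, and each ratio compares 1 library with 1 library. Krt8 had a ratio of 1.08 in δ-cells, 0.844 in ductal cells and 0.652 in β-cells. After thinning, the log2 ratio of Krt8 was −0.07 in δ-cells and −0.23 in α-cells. Sox9 had a ratio of 1.31 in ductal cells and 0.592 in δ-cells. Spp1 had a ratio of 1.11 in ductal cells, 1.32 in δ-cells, 0.356 in acinar class 2 and 0.684 in β-cells. In δ-cells the Spp1 ratio had 50% of its UMIs in 5 cells of each library, and after thinning its log2 ratio was −0.36. In acinar class 2 it stood at a log2 ratio of −1.23 without the top cell of each library. In β-cells 1 FAKi cell held 51 of the 236 Spp1 UMIs. The class annotated as δ-cells carried more PP-cell than δ-cell marker transcripts, with sums of 216541 and 112504 CPM in vehicle and 227612 and 110964 CPM in FAKi, so its ratios are not those of δ-cells alone. The immune classes were not among the classes set side by side here. Krt8 had a ratio of 0.333 in T cells, on 351 vehicle and 68 FAKi UMIs. In macrophages its ratio was 2.53, on 54 and 58 UMIs, and in B cells it was 122 and 0 UMIs. Part of the duct transcripts of these classes lay in a few duct-rich cells, and markers of other classes differed in them between the libraries. The acinar marker sum in macrophages was 2177 and 13694 CPM and the β-cell marker sum in T cells 84257 and 456357 CPM.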

How the results depend on the processing

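No paired analysis was possible because each condition is 1 library whose lane counts were merged before deposit, so lane numbers pair nothing and no replicate could be left out. The median over the 8 genes in ductal cells lay between −0.22 and −0.12 on the log2 scale in every alternative. Cftr in ductal cells (1.07) ran from 0.83 with a pseudocount of 10 CPM, under the 2-fold bar, to 1.77 after thinning. Krt8 in β-cells ran from −0.70 to −0.57, the latter under the 1.5-fold bar. With cells of at least 1000 genes, 13 class 1 and 36 class 2 FAKi acinar cells were left, with 2 and 23 Spp1 UMIs: the log2 ratio of Spp1 between the classes turned to −1.58 and the median over the 8 genes to −0.42 (from 0.08). Scaling without the 20 most abundant genes shifted all genes by 0.17 (acinar class 1, FAKi over vehicle), and by 0.20 and 0.35 (class 1 over class 2, vehicle and FAKi).

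Called genes over the whole table followed the UMI minimum (20 as reported, then 100, then 1) and a 1.5-fold bar. They were 521, 181 and, at 1.5-fold, 1115 in ductal cells, 112, 13, 256 and 189 in acinar class 1, 124, 13, 313 and 211 in acinar class 2, and 397, 109, 659 and 870 in β-cells. Between acinar classes they were 563, 94 and 1458 in vehicle and 1088, 178 and 2239 in FAKi. Between β-cell clusters they were 264, 74, 469 and 602 in vehicle and 189, 58 and, at 1.5-fold, 517 in FAKi.

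Shares of cells (vehicle, FAKi) moved as follows. Asking for 3 of 6 genes gave 96.0% and 96.2% in ductal cells, 5.81% and 7.89% in acinar class 2, 2.14% and 1.20% in β-cells and, in FAKi, 0.831% in the background. Thinning gave 86.1% and 88.4% in ductal cells, 0% and 0.962% in acinar class 1, 0% and 0% in class 2, 0.282% and 0.0758% in β-cells and 0.649% and 0.597% in the background. Asking for 2 UMIs of a gene gave 96.4% in vehicle ductal cells, 0% and 0.337% in acinar class 1, 3.49% and 2.63% in class 2, 6.51% and 5.24% in β-cells and 1.15% and 0.831% in the background. Endothelial cells alone, chosen as background after seeing the data, gave 1.11% and 0.743%. Without the FAKi ductal cell that held all Muc6 UMIs, also chosen then, 1 other duct gene and 0 metaplasia genes were called higher, where both counts had been 2. Of 846 values of single genes, 89 moved beyond the counting interval of the reported ratio, and 69 had the opposite sign. Of those 69, 1 belonged to a called ratio, the Spp1 value above.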
